A study of Mus musculus with 8 samples.

Results

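The immunoglobulin gene segments measured here were 20 genes of 22180 that the arrays read with at least 1 probe set naming that gene alone. They were chosen by symbol: the variable (V), diversity (D), joining (J) and constant (C) segments of the kappa, heavy and lambda loci, with Ighm and Ighe taken by their full names. A gene with several such probe sets was represented by the one that was brightest on average over the 8 arrays. The 20 were 13 kappa V segments, 1 kappa J segment, 3 heavy V segments, 2 heavy constant regions and 1 lambda V segment. No gene with its own probe set matched the stems Igkc, Ighd, Ighj, Igha, Iglj, Iglc or Ighe.

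An antibody is built from heavy chains and light chains, and a light chain is of the kappa or the lambda kind. In developing B cells a V segment is joined to a J segment by rearrangement of the DNA between them, with a D segment included in the heavy chain, so that each B cell carries its own variable region. The joined region is transcribed together with a constant region. Ighm encodes the constant region of IgM, the first class a B cell makes, and Ighg3 that of the IgG3 class. Most mouse light chains are kappa. B cells carry the antibody on their surface, and plasma cells secrete it in large amounts. The healthy annulus fibrosus, the fibrous ring of the intervertebral disc, is largely without blood vessels and is not known as a site of antibody production.

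The arrays held RNA of the thoracic annulus fibrosus of Black 6 mice in 4 groups: WT and ENT1-null mice, each at an age of 2 months and of 6 months, with 2 arrays in every group. The ENT1-null mice lacked exons 2 to 4 of Slc29a1, which encodes the equilibrative nucleoside transporter ENT1, a protein that carries adenosine and other nucleosides across the cell membrane. The labels limit this deletion to no cell type and do not say whether WT animals were littermates. Every array held a pool of 5 to 6 annulus tissues, and the labels do not give the number of mice behind a pool, so p-values measure only the spread between these pools, which may be technical.

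All values are log2 values made by the authors with RMA, a method that removes background, gives all arrays the same distribution and combines the probes that belong to a set. A difference of 1 on this scale is a 2-fold difference. Array medians lay between 6.77 and 6.82, and 2 arrays a group limit the precision. Slc29a1 was at 10.71 and 10.69 in 2 month WT and 9.21 and 9.36 in 2 month ENT1-null, and at 10.34 and 10.43 in 6 month WT and 8.90 and 8.80 in 6 month ENT1-null, so that it was lower on every ENT1-null array. Annulus markers were present: the 14 cartilage and annulus genes, Acan and Comp among them, had a mean level of 10.67 to 11.55 on the 8 arrays, and this mean was lowest on the 6 month ENT1-null arrays. Arrays are named below by group and replicate number. A change in a bulk sample can come from more or fewer cells of a type or from more or less RNA per cell, and these cannot be told apart here.

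**Figure D1:**
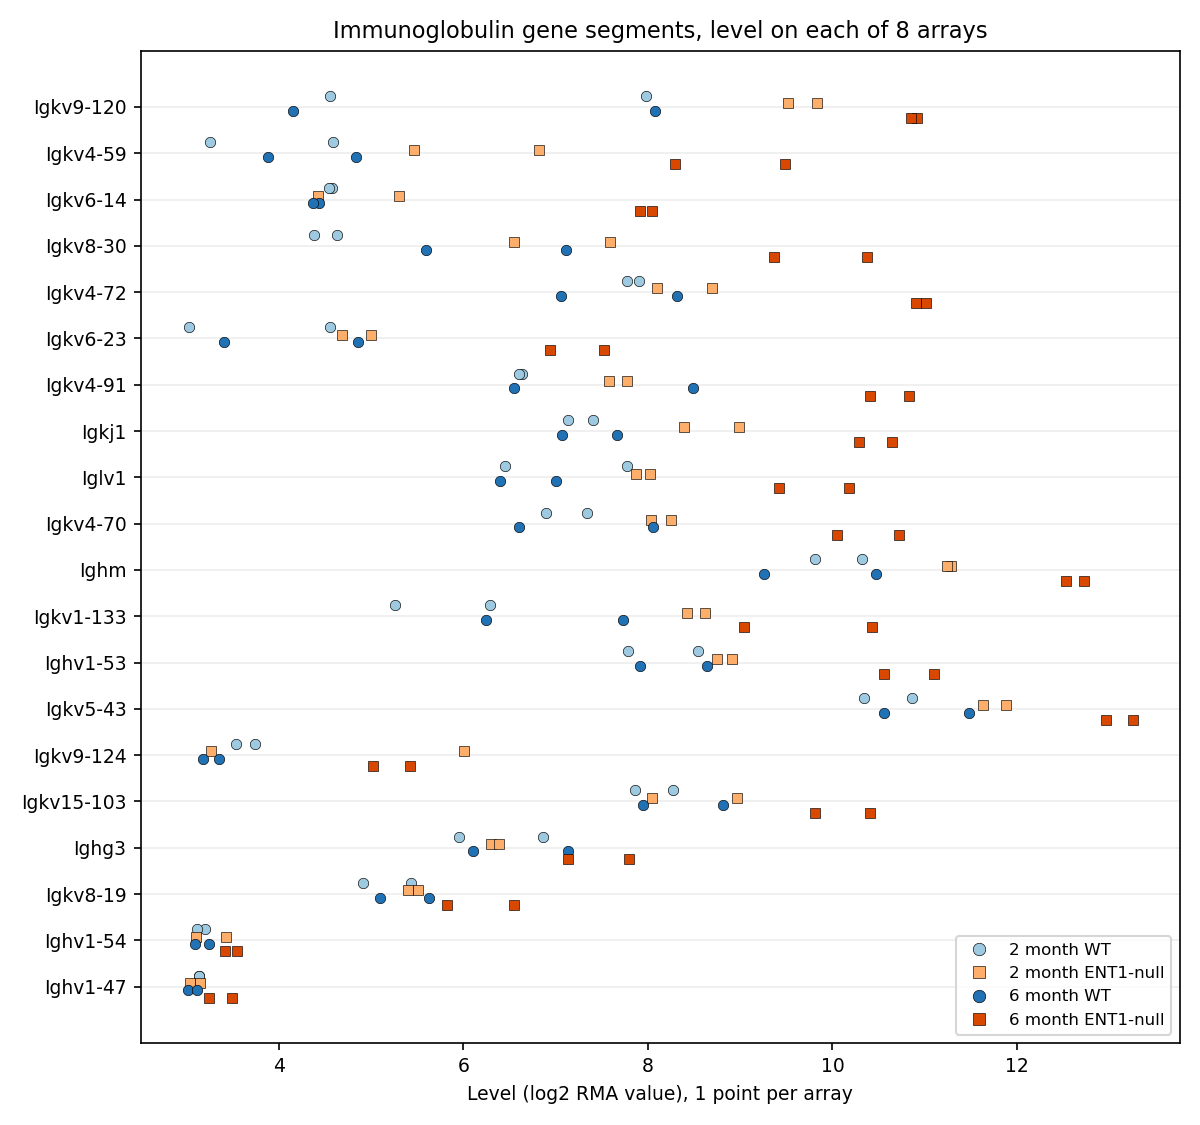
Level (log2 RMA value) of each of the 20 immunoglobulin segments on each of the 8 arrays, 1 point per array, genes ordered by their 6 month genotype difference. On the 6 month ENT1-null arrays all 20 genes lie above both 6 month WT arrays; levels of different genes are read by different probes and are not comparable.

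At 6 months the antibody genes were higher in ENT1-null than in WT as a group. All 20 segments had a difference above 0, against 41.5% of all genes, and the median difference was 2.91 against −0.06 over all 22180 genes. Of the 20, 15 passed limma's test (adjusted p below 0.05 over all genes), all of them higher, where 14.2% of all genes were called higher and 12.2% lower. The 15 differences ran from 1.73 (Igkv15-103) to 4.77 (Igkv9-120), with adjusted p from 0.000437 to 0.0314. On all 20 both ENT1-null arrays lay above both WT arrays, which held for 28.1% of all genes. The segments took 5 of the 10 and 10 of the 20 largest positive differences among all genes, and Igkv9-120 had the largest. Without 6 month WT replicate 2, the array on which 10 of the 20 segments were lowest, 12 of the 20 passed.

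Ighm, the IgM constant region, was at 9.81 and 10.32 in the 2 month WT arrays (replicates 1 and 2, the order used throughout) and at 11.29 and 11.25 in 2 month ENT1-null. At 6 months it was at 10.47 and 9.26 in WT and at 12.53 and 12.73 in ENT1-null. The genotypes did not overlap at either age, and the WT pair at 6 months was further apart than any other pair. The difference was 2.77 ± 0.34 (SE of the limma fit, n = 2 and 2) at 6 months, a 6.81-fold higher level (adjusted p = 0.00107). At 2 months it was 1.20 ± 0.34 (adjusted p = 0.153).

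Ighm had 7 probe sets annotated to it alone, so that the genotypes could be compared on 7 sets of probes, all on the same RNA. At 6 months their differences were 2.77 for the one used and 1.20, 3.12, 3.30, 2.44, 0.72 and 4.04 for the others. The ENT1-null arrays lay above the WT arrays at 6 months on all 7 and at 2 months on 6, the exception being the probe set with the smallest difference (0.16 at 2 months). Which part of the heavy chain transcript each probe set reads, constant or variable, was not examined. They may thus not all read the IgM constant region, and the same doubt holds for the probe sets of Ighg3.

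Ighg3, the IgG3 constant region, was at 5.95 and 6.87 in 2 month WT, 6.30 and 6.39 in 2 month ENT1-null, 7.13 and 6.10 in 6 month WT and 7.14 and 7.80 in 6 month ENT1-null. The highest WT array and the lowest ENT1-null array at 6 months were almost level. The difference was 0.85 ± 0.39 at 6 months (adjusted p = 0.153) and −0.07 ± 0.39 at 2 months (adjusted p = 0.958), so that this class did not pass at either age. The second probe set of Ighg3 gave 0.90 at 6 months, with arrays that overlapped, and 1.19 at 2 months, with ENT1-null above WT. The mean of its 2 probe sets gave 0.56 at 2 months, opposite in sign to the probe set used.

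**Figure D2:**
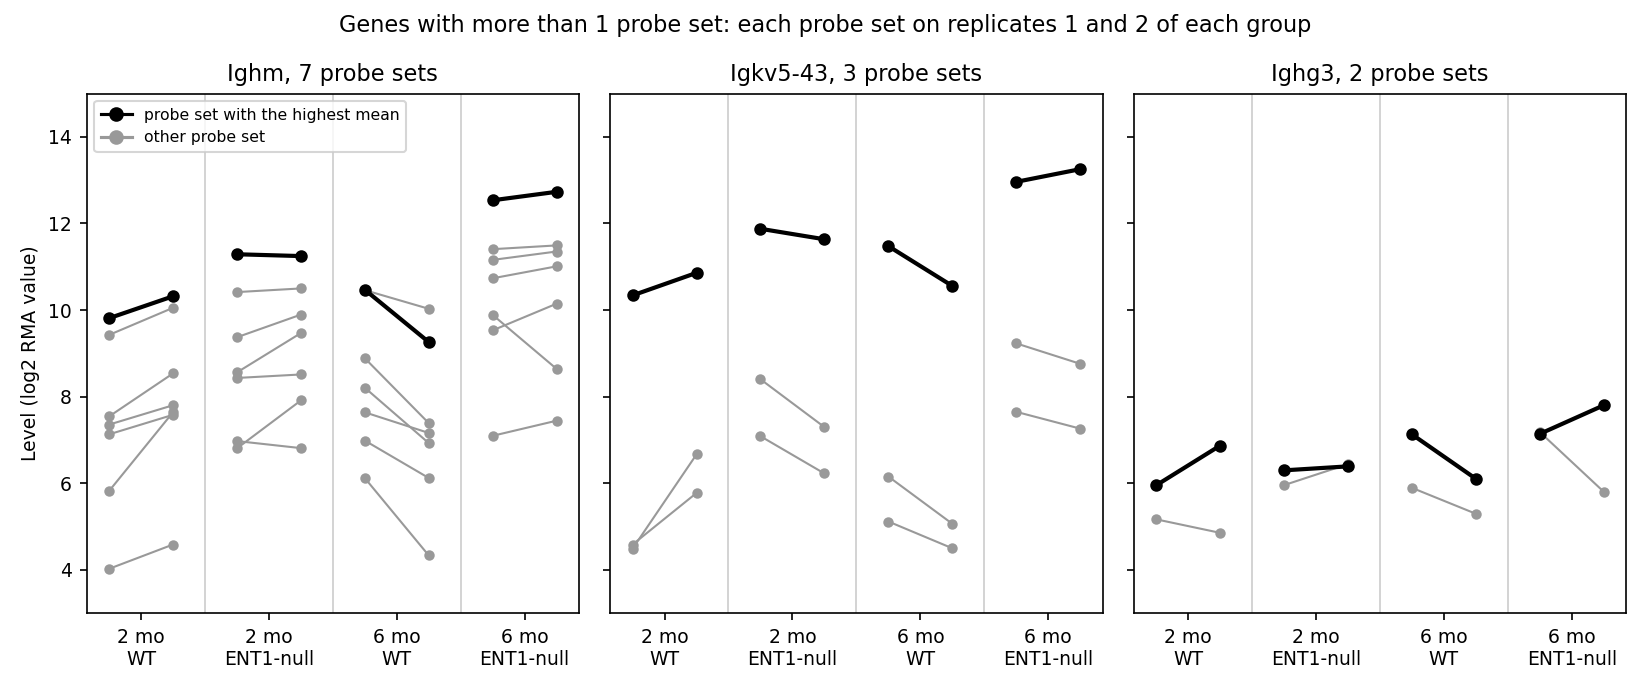
Level (log2 RMA value) of every single-gene probe set of Ighm, Igkv5-43 and Ighg3 on replicates 1 and 2 of each group, with the probe set used in black and the others in grey. The 6 month ENT1-null arrays lie above the 6 month WT arrays on all 7 Ighm and all 3 Igkv5-43 probe sets, and overlap them on 1 of the 2 Ighg3 probe sets.

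The 3 heavy V segments all belong to the Ighv1 family and did not behave alike. Ighv1-53 was at 7.78 and 8.54 in 2 month WT, 8.91 and 8.75 in 2 month ENT1-null, 8.64 and 7.91 in 6 month WT and 10.56 and 11.10 in 6 month ENT1-null. ENT1-null lay above WT at both ages, by 0.67 ± 0.31 at 2 months (adjusted p = 0.36) and by 2.55 ± 0.31 at 6 months (adjusted p = 0.000999), a 5.87-fold higher level. Ighv1-47 stayed between 3.02 and 3.50 and Ighv1-54 between 3.09 and 3.55 on all 8 arrays, near the low end of the values on these arrays (2.48 to 13.8). Their 6 month differences were 0.31 ± 0.11 (adjusted p = 0.0728) and 0.31 ± 0.13 (adjusted p = 0.107). Without 6 month ENT1-null replicate 2 Ighv1-47 passed, at 0.43.

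Igkj1, the first J segment of the kappa locus, was at 7.41 and 7.14 in 2 month WT and 8.39 and 8.99 in 2 month ENT1-null. At 6 months it was at 7.67 and 7.07 in WT and at 10.65 and 10.29 in ENT1-null. All 4 ENT1-null arrays lay above the 4 WT arrays. The difference was 1.41 ± 0.25 at 2 months (adjusted p = 0.0727) and 3.10 ± 0.25 at 6 months (adjusted p = 0.000442), an 8.55-fold higher level.

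Of the 13 kappa V segments 11 passed at 6 months, with a median difference of 3.10. V segments of a family resemble each other in sequence, so that a probe set may also take up RNA of relatives, and the levels of family members are uncertain on that account. The segments are described by family.

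Family 4 was measured on 4 segments and all 4 passed at 6 months, between 3.05 and 4.53. Igkv4-59 was at 3.26 and 4.59 in 2 month WT, 6.82 and 5.47 in 2 month ENT1-null, 4.84 and 3.89 in 6 month WT and 8.29 and 9.49 in 6 month ENT1-null. Its ENT1-null arrays were above all WT arrays at both ages, by 2.22 ± 0.62 (adjusted p = 0.149) and 4.53 ± 0.62 (adjusted p = 0.00153). Igkv4-91 was at 6.64 and 6.60 in 2 month WT, 7.57 and 7.77 in 2 month ENT1-null, 8.49 and 6.55 in 6 month WT and 10.41 and 10.83 in 6 month ENT1-null. The first 6 month WT array thus lay above both 2 month ENT1-null arrays. The 6 month differences were 3.10 ± 0.51 for Igkv4-91 (adjusted p = 0.00328), 3.27 ± 0.36 for Igkv4-72 (adjusted p = 0.000716) and 3.05 ± 0.43 for Igkv4-70 (adjusted p = 0.00173). Igkv4-72 was at 7.90 and 7.78 in 2 month WT, 8.69 and 8.10 in 2 month ENT1-null, 8.32 and 7.06 in 6 month WT and 10.90 and 11.02 in 6 month ENT1-null. Igkv4-70 was at 6.89 and 7.34, 8.25 and 8.03, 8.06 and 6.60, and 10.05 and 10.72 in the same order of groups. On both genes the 6 month ENT1-null arrays were the highest of the 8.

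Family 6 gave Igkv6-14, the segment with the lowest adjusted p of all at 6 months, 0.000437. It was at 4.58 and 4.54 in 2 month WT, 5.31 and 4.43 in 2 month ENT1-null, 4.44 and 4.38 in 6 month WT and 8.04 and 7.92 in 6 month ENT1-null. Only the 6 month ENT1-null arrays stood apart, and the 2 month groups overlapped. The difference was 3.57 ± 0.24 at 6 months, an 11.9-fold higher level, and 0.31 ± 0.24 at 2 months (adjusted p = 0.59). Its relative Igkv6-23 was at 3.03 and 4.55 in 2 month WT, 5.00 and 4.69 in 2 month ENT1-null, 4.85 and 3.41 in 6 month WT and 7.52 and 6.94 in 6 month ENT1-null. Here the genotypes did not overlap at 2 months, though by a narrow margin, and the differences were 1.06 ± 0.56 (adjusted p = 0.424) and 3.10 ± 0.56 (adjusted p = 0.0052).

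In family 8 the members differed. Igkv8-30 was at 4.63 and 4.38 in 2 month WT, 7.59 and 6.55 in 2 month ENT1-null, 7.11 and 5.59 in 6 month WT and 9.37 and 10.37 in 6 month ENT1-null, with no overlap of genotypes at either age. It was higher by 3.52 ± 0.54 at 6 months (adjusted p = 0.00239), and its 2 month value was 2.56 ± 0.54 (adjusted p = 0.0864). Igkv8-19 was at 5.44 and 4.91, 5.40 and 5.51, 5.09 and 5.63, and 5.82 and 6.55 in the same order of groups. Its 6 month difference of 0.83 ± 0.28 did not pass (adjusted p = 0.0612), though without 6 month ENT1-null replicate 1, at 1.19, it did.

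Family 9 held the largest value and wide splits between replicates. Igkv9-120 was at 4.55 and 7.98 in 2 month WT, 9.51 and 9.83 in 2 month ENT1-null, 8.08 and 4.16 in 6 month WT and 10.92 and 10.86 in 6 month ENT1-null. Both WT pairs were split, by 3.43 at 2 months and 3.92 at 6 months, while the ENT1-null pairs lay close together. The differences were 3.41 ± 1.32 at 2 months (adjusted p = 0.278) and 4.77 ± 1.32 at 6 months (adjusted p = 0.0314), the largest of all 22180 genes at both ages. Without 6 month WT replicate 2 the latter was 2.81 and did not pass. Leaving out either 6 month ENT1-null array (4.74 and 4.80) or running eBayes with trend and robust settings (adjusted p = 0.0999) also ended the call. Igkv9-124 was at 3.53 and 3.74, 3.26 and 6.01, 3.36 and 3.18, and 5.43 and 5.02 in the same order of groups. Its highest array was thus a 2 month ENT1-null array whose partner was among the lowest. Its 6 month difference was 1.96 ± 0.71 (adjusted p = 0.0786). It passed when either 2 month ENT1-null array was left out, at the same 1.96, since these arrays enter only through the estimated spread.

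Families 1, 5 and 15 were measured on 1 segment each. Igkv1-133 was at 5.26 and 6.29 in 2 month WT, 8.62 and 8.42 in 2 month ENT1-null, 7.73 and 6.24 in 6 month WT and 10.43 and 9.04 in 6 month ENT1-null. The difference was 2.75 ± 0.58 at both ages (adjusted p = 0.0883 and 0.0104). The 6 month call was lost when 6 month WT replicate 2 was left out (2.01), as it was for 6 month ENT1-null replicate 1 (2.05). Igkv5-43 was at 10.34 and 10.86 in 2 month WT, 11.88 and 11.63 in 2 month ENT1-null, 11.48 and 10.56 in 6 month WT and 12.96 and 13.25 in 6 month ENT1-null, without overlap at either age. It was higher by 2.09 ± 0.29 at 6 months (adjusted p = 0.0017), and its other probe sets gave 3.38 and 2.65. Igkv15-103 was at 7.86 and 8.28 in 2 month WT, 8.04 and 8.97 in 2 month ENT1-null, 8.81 and 7.95 in 6 month WT and 9.81 and 10.41 in 6 month ENT1-null. Its genotypes overlapped at 2 months and not at 6, where the difference was 1.73 ± 0.38 (adjusted p = 0.0118). This call was lost when 6 month WT replicate 2 was left out (1.30), as it was for 6 month ENT1-null replicate 2 (1.43).

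Iglv1, the one lambda V segment measured, was at 6.45 and 7.77 in 2 month WT, 7.88 and 8.03 in 2 month ENT1-null, 7.01 and 6.40 in 6 month WT and 9.42 and 10.18 in 6 month ENT1-null. ENT1-null lay above WT at both ages, at 2 months by only a small gap between the nearest arrays. The difference was 0.84 ± 0.42 at 2 months (adjusted p = 0.399) and 3.09 ± 0.42 at 6 months (adjusted p = 0.00154), an 8.53-fold higher level. All 3 antibody loci, on chromosomes 12 (heavy), 6 (kappa) and 16 (lambda), thus had members that passed at 6 months.

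**Figure D3:**
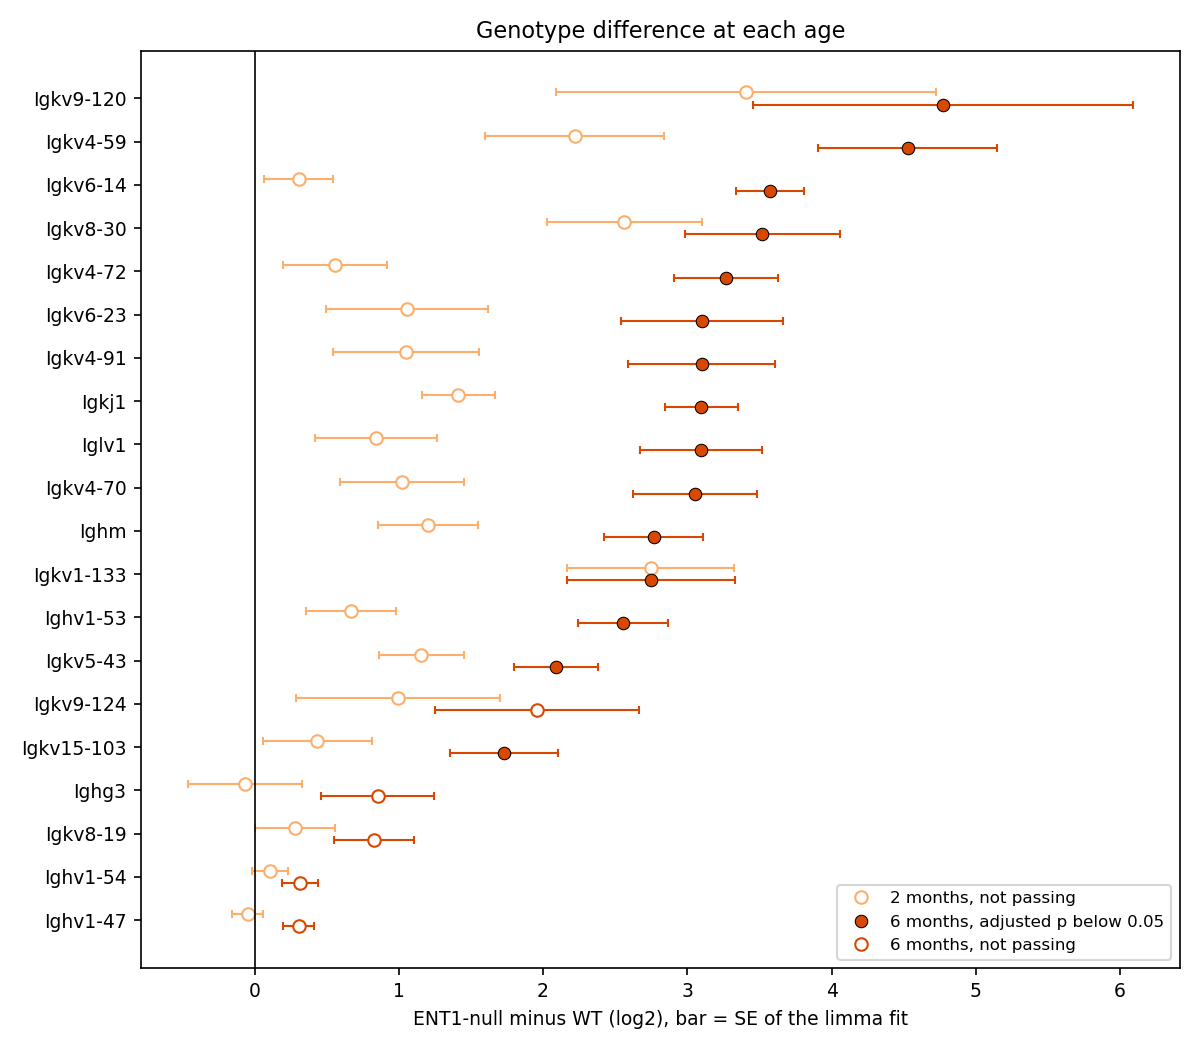
Difference between ENT1-null and WT (log2, points) with the SE of the limma fit (bars) for each of the 20 segments at 2 months and at 6 months, with filled points for adjusted p below 0.05. At 6 months 15 of 20 pass, at 2 months 0 of 20, and Igkv1-133 has the same value at both ages.

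At 2 months 18 of the 20 segments had a difference above 0, against 39.3% of all genes, with a median of 1.01 against −0.04 over all genes. None passed limma's test, where 0.0496% of all genes were called higher and 0.0812% lower. At an unadjusted p below 0.05, 8 of the 20 were higher (all genes, 7.27%). Both ENT1-null arrays lay above both WT arrays on 13 of the 20 (all genes, 17.0%). Igkv9-120, Igkv1-133 and Igkv8-30 had the 3 largest positive differences of all genes at this age, and Igkv4-59 was the fifth. The 2 lowest values were those of Ighg3 (−0.07) and Ighv1-47 (−0.05). Without 6 month WT replicate 1, or without replicate 2, 4 segments passed at 2 months: Ighm, Igkj1, Igkv4-91 and Igkv8-30. These arrays enter the 2 month comparison only through the shared estimate of the spread, which the 6 month WT pair widens. Calls over all genes rose in the same fits.

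The genotype difference was larger at 6 than at 2 months on all 20 segments, which held for 52.4% of all genes, with a median gap of 1.46. Igkv6-14 alone passed the test of that gap, at 3.27 ± 0.34 (adjusted p = 0.0404), where 0.0316% of all genes were called higher and 0.018% lower (7 and 4 genes, and 108 and 174 after quantile normalization again). It had the largest positive gap of all 22180 genes, on which gaps ran down to −4.30. At an unadjusted p below 0.05, 11 of the 20 had a larger difference at 6 months (all genes, 12.3%). The call of Igkv6-14 ended without any 1 of the 4 arrays of 6 months or of the 2 of 2 month WT, with values between 2.83 and 3.71 over the 8 arrays left out. Igkv4-72 followed at 2.71 ± 0.51 (adjusted p = 0.0561), then Igkv4-59 at 2.31 ± 0.88 (adjusted p = 0.187) and Iglv1 at 2.25 ± 0.60 (adjusted p = 0.0902). Igkv1-133 was at the other end, with a gap of 0.00 ± 0.82 (adjusted p = 0.999). An SE of this size cannot show whether its genotype difference was the same at both ages.

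In WT the segments did not pass for age. Of the 20, 13 had a higher mean at 6 than at 2 months (all genes, 42.9%), and the median difference was 0.15. None was called, and 0.0% of all genes were called in either direction. The 6 month arrays lay above the 2 month arrays on 1 segment, Igkv8-30 (all genes, 17.3%). They lay below them on 3, Ighv1-47, Igkv6-14 and Igkv9-124, which held for 6546 of all 22180 genes. At an unadjusted p below 0.05, 1 of the 20 was higher with age (all genes, 4.85%). The differences ran from −0.41 ± 0.42 for Iglv1 (adjusted p = 0.74) to 1.85 ± 0.54 for Igkv8-30 (adjusted p = 0.319).

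In ENT1-null mice the segments were higher at 6 than at 2 months. All 20 had a difference above 0 (all genes, 48.3%), the median was 1.69, and 13 passed, where 7.58% of all genes were called higher and 6.15% lower. On 18 of the 20 both 6 month arrays lay above both 2 month arrays (all genes, 25.8%). The largest were Igkv6-14 (3.11 ± 0.24, adjusted p = 0.00192), Igkv4-91 (2.95 ± 0.51, adjusted p = 0.00959) and Igkv8-30 (2.80 ± 0.54, adjusted p = 0.0139). Igkv9-120, the largest in the genotype comparisons, gave 1.22 ± 1.32 here (adjusted p = 0.637). The count depended on single arrays: 6 passed when 2 month ENT1-null replicate 1 was left out and 7 when its partner was. Leaving out 6 month ENT1-null replicate 1 gave 9, and leaving out its partner gave 3. Igkj1, Igkv4-72 and Igkv6-14 passed whichever of the 8 arrays was left out. Leaving out any ENT1-null array also lowered the number of calls over all genes. With eBayes run with trend and robust settings 5 passed. This comparison and the 6 month genotype comparison share the 6 month ENT1-null arrays, so that they are not independent.

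Over both ages together, in a model with genotype and age as terms, all 20 segments had a difference above 0 (all genes, 38.6%), with a median of 1.95. Of the 20, 13 passed, where 8.26% of all genes were called higher and 7.17% lower. The largest were Igkv9-120 (4.09 ± 0.93, adjusted p = 0.0239), Igkv4-59 (3.37 ± 0.58, adjusted p = 0.0102) and Igkv8-30 (3.04 ± 0.40, adjusted p = 0.00724). On 8 of the 20 all 4 ENT1-null arrays lay above all 4 WT arrays (all genes, 9.28%): Igkv9-120, Igkv4-59, Igkv1-133, Igkj1, Ighm, Iglv1, Igkv5-43 and Ighv1-53. The call of Igkv9-120 was lost when 2 month WT replicate 1 was left out (3.54), as it was for 2 month ENT1-null replicate 2 (4.16) and for each 6 month ENT1-null array (3.94 and 3.96). Counts fell to 8 without 2 month WT replicate 1, to 7 without 6 month WT replicate 1 and to 6 without either 6 month ENT1-null array. The number of calls over all genes fell in these fits as well. Igkv6-14, with its difference at 6 months alone, was at 1.94 ± 0.59 (adjusted p = 0.0577).

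The arrays of a group were further apart on these segments than on most genes. The median absolute difference between the replicates of a group was 0.94 over the 20 segments in 6 month WT, against 0.11 over all genes. In 2 month WT it was 0.48 (all genes, 0.11), in 2 month ENT1-null 0.28 (0.12) and in 6 month ENT1-null 0.48 (0.13). In 6 month WT replicate 1 was higher than replicate 2 on 18 of the 20, while over all genes replicate 2 was higher on 50.1%. Measured from each gene's own mean over the 8 arrays, the median segment lay at −1.20 and −0.64 in 2 month WT, −0.02 and −0.08 in 2 month ENT1-null, −0.17 and −1.37 in 6 month WT and 1.69 and 1.89 in 6 month ENT1-null. The first 6 month WT array was thus closer to the 2 month ENT1-null arrays than to its own partner. The lowest array was 6 month WT replicate 2 for 10 segments and 2 month WT replicate 1 for 7. The highest was a 6 month ENT1-null array for 19, the exception being Igkv9-124.

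Other genes of B cells and plasma cells were measured beside the segments, on lists that were written with earlier results of these data known. Of the 14 measured mature B cell genes, 12 were higher at 6 months and none lower, with a median of 1.00. Over all genes 14.2% were called higher and 12.2% lower at 6 months, shares that apply to every list below. Cd79a, a signalling chain of the B cell receptor, was higher by 1.75 ± 0.24 (adjusted p = 0.00155), Ms4a1, which encodes CD20, by 1.00 ± 0.20 (adjusted p = 0.00754) and Pax5, the transcription factor that keeps B cell identity, by 0.66 ± 0.15 (adjusted p = 0.0165). Without 6 month WT replicate 2, 7 of the 14 passed, and Ms4a1 and Pax5 did not. The call of Pax5 was also lost when the first replicate of either 6 month group was left out. With 1 array left out the difference ran from 0.77 to 1.24 for Ms4a1 and from 0.47 to 0.85 for Pax5. At 2 months none of the 14 passed, 4 were higher at an unadjusted p below 0.05 (all genes, 7.27%) and the median was 0.32.

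Plasma cell genes were divided. Jchain, which links the units of secreted IgM, was at 6.23 and 7.25 in 2 month WT, 8.21 and 8.59 in 2 month ENT1-null, 7.76 and 5.86 in 6 month WT and 10.44 and 10.56 in 6 month ENT1-null. As with Ighm, 6 month WT replicate 2 was lowest and the genotypes did not overlap at either age. Its difference was 3.69 ± 0.56 at 6 months (adjusted p = 0.00233) and 1.66 ± 0.56 at 2 months (adjusted p = 0.22). Over the list of 14, 6 were higher (all genes, 14.2%) and 1 lower (all genes, 12.2%) at 6 months, with a median of 0.23. Besides Jchain, limma called Pou2af1 higher by 1.39 (adjusted p = 0.00186), Slamf7 by 1.25 (adjusted p = 0.00108) and Tnfrsf13b by 0.59 (adjusted p = 0.0158). With 1 array left out these ran from 1.15 to 1.64, 1.04 to 1.46 and 0.42 to 0.76. Prdm1, which encodes the plasma cell factor Blimp-1, was higher by 0.48 ± 0.14 (adjusted p = 0.0359). Mzb1, a chaperone of antibody secretion, was higher by 0.38 ± 0.12 (adjusted p = 0.0456). Xbp1, the factor of the secretory programme, fell by 0.31 ± 0.10 (adjusted p = 0.0465). Many cell types use Xbp1. Sdc1, the surface marker CD138, was at 0.06 ± 0.11 (adjusted p = 0.753) and Tnfrsf17, the survival receptor BCMA, at 0.28 ± 0.15 (adjusted p = 0.205). With 1 array left out, the call of Xbp1 was lost for each of the 8 arrays (−0.38 to −0.24), that of Mzb1 for 7, all but 6 month ENT1-null replicate 2 (0.24 to 0.51), and that of Prdm1 for each of the 4 arrays of 6 months (0.43 to 0.53). The calls of Xbp1 and Mzb1 were also lost with the replicate number as a block and in a fit of only the groups compared, and that of Xbp1 with arrays centred on their medians. Over the list 3 to 5 genes passed with 1 array left out, with 3 without either 6 month WT array and 4 without either 6 month ENT1-null array. At 2 months none of the 14 passed, with 1 higher and 1 lower at an unadjusted p below 0.05. Of all 22180 genes 1612 were higher and 1778 lower at that threshold.

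Genes of B cell precursors moved in both directions. Of 8 measured, 3 were higher (all genes, 14.2%) and 2 lower (all genes, 12.2%) at 6 months, with a median of 0.12. Igll1, a part of the surrogate light chain that precursors use before light chain joining, was higher by 2.15 ± 0.46 (adjusted p = 0.0113), and Il7r, the interleukin 7 receptor, by 1.93 ± 0.32 (adjusted p = 0.00343). Vpreb1, the other part of the surrogate light chain, was at 0.01 ± 0.11 (adjusted p = 0.943). Lef1, a transcription factor shared with many tissues, fell by 0.73 ± 0.10 (adjusted p = 0.00134). The other gene called lower was Rag2, with a limma difference of −0.52 (adjusted p = 0.0204). With 1 array left out this difference ran from −0.57 to −0.47, and its call was lost for each 6 month array. Without 6 month ENT1-null replicate 1, 2 of the 8 passed and Igll1 did not (1.39 to 2.91 over the arrays left out), and without 6 month WT replicate 2, 3 passed.

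Receptors that bind the constant region of antibodies were also followed. Of 10 genes of Fc receptors and antibody transport, 7 were higher at 6 months (all genes, 14.2%), with a median of 1.03. Fcgr2b, the inhibitory IgG receptor of B cells and myeloid cells, was higher by 1.63 ± 0.20 (adjusted p = 0.00108) and Fcgr3, an activating IgG receptor, by 1.07 ± 0.10 (adjusted p = 0.000537). Fcgrt, the neonatal receptor that protects IgG from breakdown, was at −0.26 ± 0.11 (adjusted p = 0.116). The octamer factor gene Pou2f2, whose product binds immunoglobulin promoters, was at 0.34 ± 0.11 (adjusted p = 0.0555), and passed when either 2 month ENT1-null array was left out, at 0.34. Ung, a repair enzyme of antibody diversification, was at 0.12 ± 0.14 (adjusted p = 0.579).

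T cell receptor segments, which are joined by the same machinery, gave other values. Of 8 measured, 1 passed at 6 months, and the median was 0.00 against 2.91 for the immunoglobulin segments. The one that passed was Trav9d-3, at 1.85 ± 0.18 (adjusted p = 0.000537), and Trav7-4 was at −0.35 ± 0.12 (adjusted p = 0.0762). Their levels were unlike: Trav3-4 stayed between 2.66 and 3.11, near the low end of the values, and Trav12-2 between 8.42 and 8.87. The median gives every segment the same weight, so that a segment with little signal can draw it toward 0.00. Of 9 T cell genes 6 were higher (all genes, 14.2%), with a median of 0.41. Cd3e, a chain of the T cell receptor complex, was higher by 1.16 ± 0.12 (adjusted p = 0.000599) and Cd4 by 1.31 ± 0.13 (adjusted p = 0.000537). With 1 array left out 3 to 6 of the 9 passed, and 3 without either 6 month WT array or without 6 month ENT1-null replicate 1. The difference between the receptor segments and the immunoglobulin segments was not tested.

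Markers of other blood and marrow cells moved with the segments. At 6 months 15 of 16 neutrophil genes were higher (median 2.56), as were 8 of 8 measured erythroid genes (median 2.06) and 5 of 6 eosinophil genes (median 2.65). Measured from each gene's own mean, the median neutrophil gene lay at −1.55 and −0.37 in 2 month WT, 0.36 and 0.76 in 2 month ENT1-null, −0.23 and −1.81 in 6 month WT and 1.49 and 1.48 in 6 month ENT1-null. The mean level of the 8 erythroid genes was 7.54 to 8.07, 9.14 to 9.30, 7.96 to 8.79 and 10.27 to 10.55 in the same order, and that of the 6 eosinophil genes 6.66 to 7.28, 7.99 to 8.39, 6.44 to 6.79 and 9.02 to 9.20. Like the segments, the neutrophil genes were lowest on 2 month WT replicate 1 and 6 month WT replicate 2. Of the 14 annulus and cartilage genes 10 were lower (all genes, 12.2%) and 2 higher (all genes, 14.2%) at 6 months, with a median of −0.72. Of 10 skeletal muscle genes 8 were lower (median −2.34), 1 without either 6 month WT array or without 6 month ENT1-null replicate 1. At 2 months the medians were 1.50 for neutrophil, 1.47 for erythroid, 1.48 for eosinophil, −0.17 for annulus and 1.06 for muscle genes, with 1 eosinophil gene called. That count was 0 to 3 with 1 array left out, and 6 erythroid genes passed at 2 months without either 6 month WT array. Without 6 month WT replicate 2, 9 neutrophil genes passed at 6 months, and 7 without either 6 month ENT1-null array. None of the defining markers is at 0 on these arrays, since RMA values have no zero. The part of blood, marrow or muscle cells in the differences of the segments was not tested.

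**Figure D4:**
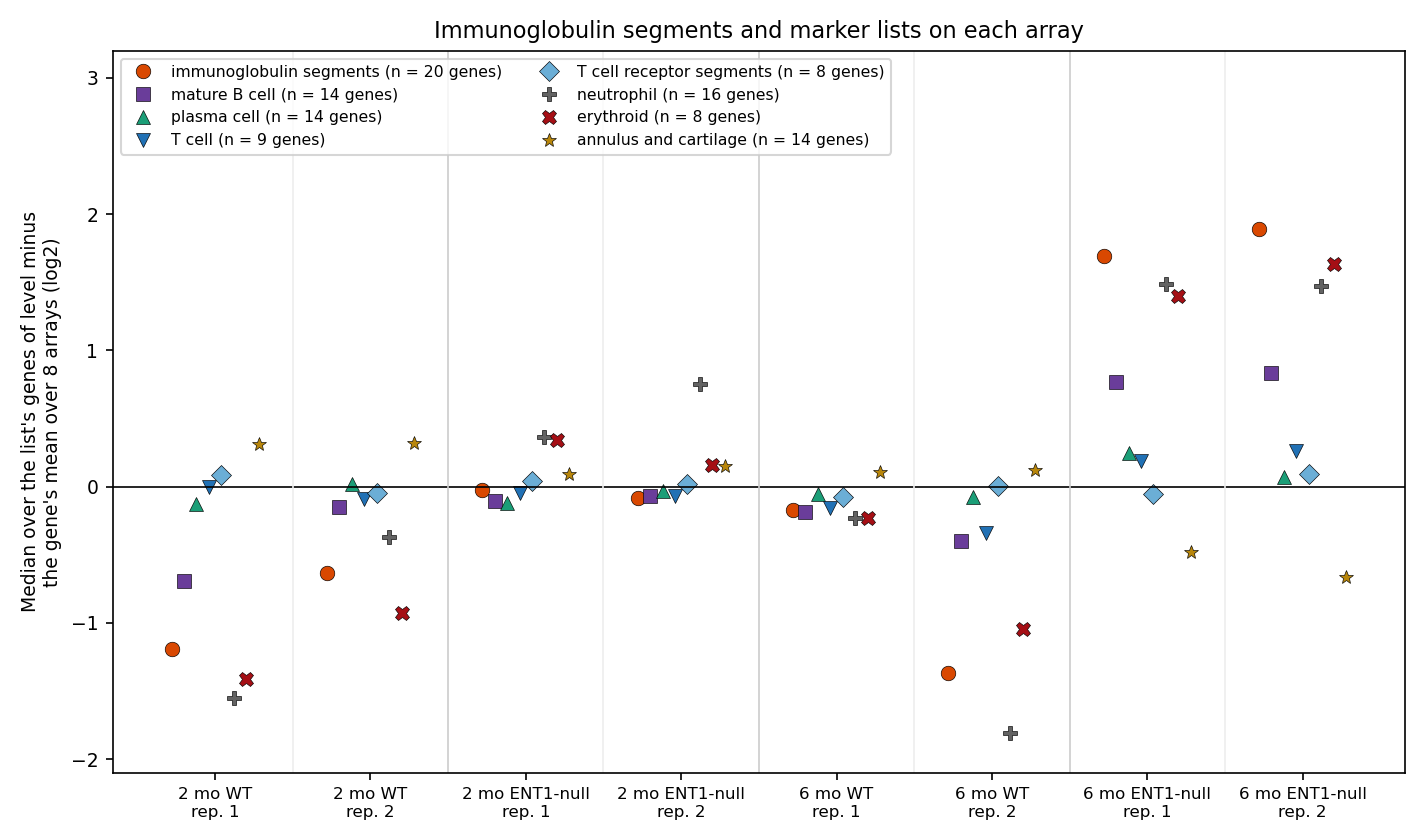
Median, over the genes of a list, of each gene's level minus its own mean over the 8 arrays (log2), for the immunoglobulin segments and 7 marker lists on each array. The segments reach 1.69 and 1.89 on the 6 month ENT1-null arrays and are lowest on 2 month WT replicate 1 and 6 month WT replicate 2, as the neutrophil genes are, while T cell receptor segments stay near 0.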

How the data were processed

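RNA of thoracic annulus fibrosus was measured on 8 Affymetrix arrays, 2 for each of 4 groups taken from the labels. The authors deposited 1 log2 value per probe set and array, computed with RMA per the submitters' processing notes. Their genome build is not given in the sources used here, so no coordinates or sequences are printed. Per the labels' protocols, RNA was isolated with Trizol and 200 ng went into biotin labelling.

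Of 41345 probe sets 23521 named 1 gene, 1814 several and 16010 none. The probe set with the highest mean of 8 arrays was kept for each of 22180 genes. No gene was left out for a low level, so that every segment was tested: 13 of the 20 lay above the 30th percentile of gene means (6.21, log2) and 7 below it.

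All genes entered the fits, run in limma 3.58.1 (R 4.3.3). With a mean for each of the 4 groups and 4 residual degrees of freedom, the first fit gave the genotype difference at each age, their gap, and the age difference in each genotype. A model of genotype and age (5 residual degrees of freedom) gave the difference over both ages. P-values came from eBayes, were adjusted by the Benjamini-Hochberg method over all genes in each comparison, and passed below 0.05. Errors are SEs of these fits. Replicate numbers were not used as a block, since no label ties them to an animal or batch.

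The alternatives were filters at the 30th and 50th percentile, quantile normalization again, centred arrays, the mean of a gene's probe sets, a fit of only the groups compared, the replicate block, trend and robust options of eBayes, the mean of the within-age differences, adjusted p below 0.1, at least 2-fold, and each array left out. A block with crossed numbers was chosen after seeing the data. The fits were tested on simulated data.

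All 20 segments are named. Of the lists, up to 4 genes with the highest mean and the defining markers could be named. Rag2, Trav3-4, Pou2af1, Slamf7 and Tnfrsf13b were named besides. Measured as single genes were 14 of 15 plasma cell, 14 of 16 mature B cell, 8 of 9 precursor, 2 of 4 octamer and diversification, 9 of 11 T cell and 8 of 13 erythroid genes, and all genes of the other lists. The members, lists and rules were chosen with earlier results of these data known.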

Additional observations from a re-analysis of the deposited data

Results flagged for a closer look

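Igkv6-14 was the only segment whose genotype difference passed the test of a change between the ages. The gap was 3.27, from 0.31 at 2 months to 3.57 at 6 months. It lay below the 30th percentile of gene means.

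Immunoglobulin probe sets outside the 20 genes also differed between the genotypes. Igh-VS107, a heavy V gene under an older kind of symbol, had 2 probe sets, with differences at 6 months of 2.78 and 2.45. On both, the ENT1-null arrays lay above the WT arrays. A further 5 probe sets carried several symbols that include immunoglobulin genes, and no gene is named from them. Their 6 month differences were 1.35, 1.87, 2.51, 2.46 and 2.35, each with both ENT1-null arrays above both WT arrays. At 2 months the 5 gave 1.32, 1.34, 1.24, 2.14 and 0.77, again without overlap. The 2 probe sets of Igh-VS107 gave 1.26, without overlap, and 0.25, with overlap, at that age.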

How the results depend on the processing

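At 6 months 14 to 18 of 20 segments passed under the alternatives that tested all 20 on 8 arrays, 12 of 13 and 11 of 11 with the filters at the 30th and 50th percentile, and 12 to 16 of 20 with 1 array left out. Under every alternative that tested them, 12 kept their call; Igkv1-133, Igkv9-120 and Igkv15-103 did not. At 2 months the count of 0 became 3 at adjusted p below 0.1, and was 0 to 4 with 1 array left out. For the gap between the ages the count of 1 became 5 at adjusted p below 0.1 and 0 with the replicate block. It became 2 and 3 with the filters at the 30th and 50th percentile, which leave out Igkv6-14. The filters use the mean of 8 arrays, so that a segment can clear them through its high ENT1-null arrays alone. Igkv9-120 did so at the 50th percentile (7.13), with WT means of 6.27 at 2 months and 6.12 at 6 months. The filter counts here and at 6 months are thus no separate support. Both filters call Igkj1 and Igkv4-72, and the stricter also Ighv1-53. With 1 array left out it was 0 to 1. For age in ENT1-null the count of 13 became 5 with trend and robust and was 3 to 13 with 1 array left out. Over both ages it was 6 to 15 with 1 array left out. For age in WT it was 0 throughout. The replicate block gave 15 at 6 months (16 with crossed numbers), 12 for age in ENT1-null and 11 over both ages. Same-numbered arrays deviated together with r of −0.281 to 0.365 across genes. The highest r was that of the 2 month groups, and the 6 month groups were at −0.10. These values cannot show whether the numbers pair the arrays within an age. Of 1755 values of single segments, 86 lost a call, 46 gained one and 17 changed sign, none of these 17 called on either side. Of these, 2 turned without an array left out: Ighg3 at 2 months was 0.56 with the mean of its probe sets, and the gap of Igkv1-133 was −0.05 after quantile normalization again. With 1 array left out, 2 month values ran from −0.53 to 0.39 for Ighg3, −0.14 to 0.75 for Igkv6-14, −0.10 to 0.01 for Ighv1-47, −0.05 to 0.27 for Ighv1-54, −0.03 to 0.90 for Igkv15-103 and −0.37 to 2.37 for Igkv9-124. Gaps ran from −0.74 to 0.75 for Igkv1-133, −0.60 to 3.32 for Igkv9-120 and −0.41 to 2.33 for Igkv9-124, the age difference of Iglv1 in WT from −1.07 to 0.26, and that of Igkv9-124 in ENT1-null from −0.79 to 1.96. Over all genes, the 29 calls at 2 months became 0 with the replicate block or only the groups compared, 5 with the mean of probe sets, 16 at 2-fold or more, 106 and 125 with the filters, 207 with trend and robust, 475 at adjusted p below 0.1, and 0 to 235 with 1 array left out. The 11 calls for the gap became 0 with the block, 129 with centred arrays, 282 after quantile normalization again, 691 and 965 with the filters, 856 with trend and robust, 1648 at adjusted p below 0.1, and 0 to 15 with 1 array left out. At 2-fold or more, the 5853 calls at 6 months became 1421, the 3046 for age in ENT1-null 533 and the 3424 over both ages 672. The last became 5525 at adjusted p below 0.1 and 5315 with the mean of within-age differences. With 1 array left out, counts ran from 3280 (without 6 month WT replicate 2) to 5661 at 6 months, 1031 to 2796 for age in ENT1-null and 1175 to 3994 over both ages. The cause of these changes was not tested, beyond the fewer genes or arrays that some alternatives use.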
